A study of Homo sapiens with 12 samples.

Results

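The BCL2 protein family was examined through 10 of its genes, 8 pro-apoptotic and 2 pro-survival, out of 16426 genes present in both deposited expression tables. The genes were taken by symbol. They comprised the BH3-only genes BBC3, PMAIP1, BCL2L11, BIK, BID and BAD, the effectors BAK1 and BAX, and the pro-survival genes MCL1 and BCL2L1. All 10 were present in both tables and all 10 passed the filter on low values, a minimum of 1 FPKM in 2 or more libraries of a table of 6.

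NCI-H1975 and HCC827, the lines sequenced, are cultured human lung adenocarcinoma cells with activating mutations of EGFR. For the compound, cells of either line had DMSO, 2.5 µM 18E or 5 µM 18E, and the 18E libraries are labelled 24 h. For the siRNAs, cells of either line had the control siCON or one of siDYN-1 and siDYN-2, and the siDYN libraries are labelled 48 h. The 12 libraries hold each line and treatment once, so each treatment rests on n = 2 lines, and nothing says that a line was cultured more than once. The series title names a small molecule, the protein LIC1 (encoded by DYNC1LI1, a light intermediate chain of the dynein motor), lung tumor growth and autophagy.

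BCL2 family proteins decide whether the outer membrane of the mitochondrion is breached. BH3-only proteins respond to stress and bind the pro-survival members, which otherwise hold the effectors BAX and BAK in check, and freed effectors form pores that release cytochrome c and start the caspase cascade. Several BH3-only genes are controlled at the level of transcription, by p53, by FOXO factors and by the stress factors ATF4 and CHOP, whereas MCL1 protein is short-lived and BAD and BID are controlled mainly after translation. In lung cancer cells driven by mutant EGFR, BCL2L11 (BIM) is known for its part in cell death after EGFR inhibition.

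The promoter stretches of PMAIP1 and BBC3, the members with the largest fitted differences at 5 µM 18E, are printed with that of the effector BAX, which differed little at that dose. Sequences are from RefSeq on GRCh38.p14, in the direction of the gene, and only bases upstream of the start in both RefSeq and GENCODE are shown. Capitals mark ACGTCA in PMAIP1 (TGACGT on the other strand, the core of a cAMP response element), CACGTG (an E-box) and TGAGTCA (a match to the AP-1 motif TGANTCA) in BBC3, and CACGTG in BAX. The stretches lie at chr18:59899746-59899947 (PMAIP1, plus strand), chr19:47232767-47232917 (BBC3, minus strand) and chr19:48954625-48954814 (BAX, plus strand).
PMAIP1: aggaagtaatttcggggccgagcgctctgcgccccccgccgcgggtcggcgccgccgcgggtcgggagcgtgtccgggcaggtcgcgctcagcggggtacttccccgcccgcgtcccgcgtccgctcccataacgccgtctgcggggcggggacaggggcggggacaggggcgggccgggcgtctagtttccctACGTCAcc
BBC3: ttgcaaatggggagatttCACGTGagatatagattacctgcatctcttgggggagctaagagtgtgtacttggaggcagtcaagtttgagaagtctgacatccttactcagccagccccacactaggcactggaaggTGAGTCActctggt
BAX: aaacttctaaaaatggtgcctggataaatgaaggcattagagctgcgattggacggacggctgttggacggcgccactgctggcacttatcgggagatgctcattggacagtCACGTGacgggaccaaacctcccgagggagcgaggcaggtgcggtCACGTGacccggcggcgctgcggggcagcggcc

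RefSeq windows, running from 250 bases before to 50 bases after the start, were found for 8 of the 10 members; BIK and MCL1 had no entry. Letters were searched on both strands in these 300-base windows. TGACGT occurred in 2 members, PMAIP1 and BAD, and in 7.98% of all 35116 windows. TGANTCA occurred in 1 member, BBC3, and in 7.71% of windows. CACGTG occurred in BBC3, BID and BAX, with 4 copies in BAX, of which 2 lie in the printed stretch, and in 7.26% of windows. The composite of ATF and C/EBP factors, TGATGNAA, was found in 0 members and 3.62% of windows, and the FOXO motif TGTTTAC in 1 member, BCL2L11, and 3.42% of windows. The heat shock unit TTCNNGAA occurred in BID and in 7.74% of windows. The GC box GGGCGG was in 7 members and 45.0% of windows, with 4 copies in PMAIP1, and CCAAT was in 5 members and 34.6% of windows. A match describes letters in a window and is not a binding site.

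DYNC1LI1, the gene named in the title, was 21.5% (siDYN-1) and 12.8% (siDYN-2) of its siCON level in NCI-H1975, and 14.9% and 7.49% in HCC827. All 8 lung epithelial markers listed reached at least 7.14 FPKM in every library. Of 12 markers of cells other than epithelium (blood, endothelium and stroma), 11 were in a table and 3 reached 1 FPKM in any library (CD14, up to 10.65 FPKM, CDH5 and COL1A1); the defining blood cell gene PTPRC stayed at or below 0.83 FPKM. The summed markers of other cells ran from 2.46 to 14.11 FPKM, against 3768 to 10142 FPKM for the epithelial list. Summed FPKM per library lay between 486409 (HCC827 with DMSO) and 685680 (NCI-H1975 with siDYN-2), with 534 to 2212 genes listed at 0. The tables give no read totals, so depth is unknown.

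With DMSO the pro-survival genes and BAX were the most abundant members and BBC3 the least in both lines. The siCON order of HCC827 had the same genes at its ends, whereas in NCI-H1975 with siCON BAD (40.85 FPKM) stood just above BCL2L1 (40.52 FPKM) and BCL2L11 (5.32 FPKM) was lowest, below BBC3 (6.16 FPKM). FPKM is scaled per length, so levels were set side by side between genes. How it was computed is not given, and exons of several members overlap other genes, so such orders are approximate. In NCI-H1975 with DMSO the order was MCL1 at 90.09 FPKM, BAX at 89.87, BCL2L1 at 41.55, PMAIP1 at 30.0, BAD at 28.13, BAK1 at 16.09, BCL2L11 at 9.87, BID at 7.82, BIK at 6.43 and BBC3 at 2.78. In HCC827 with DMSO it was MCL1 at 132.05 FPKM, BCL2L1 at 130.1, BAX at 84.97, BIK at 33.51, PMAIP1 at 29.64, BAD at 23.56, BAK1 at 12.91, BCL2L11 at 10.56, BID at 6.25 and BBC3 at 2.89. MCL1, BCL2L1 and BIK thus stood higher in HCC827 than in NCI-H1975. With 1 library per line and treatment, there is no spread from which neighbours in these orders could be told apart.

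**Figure D1:**
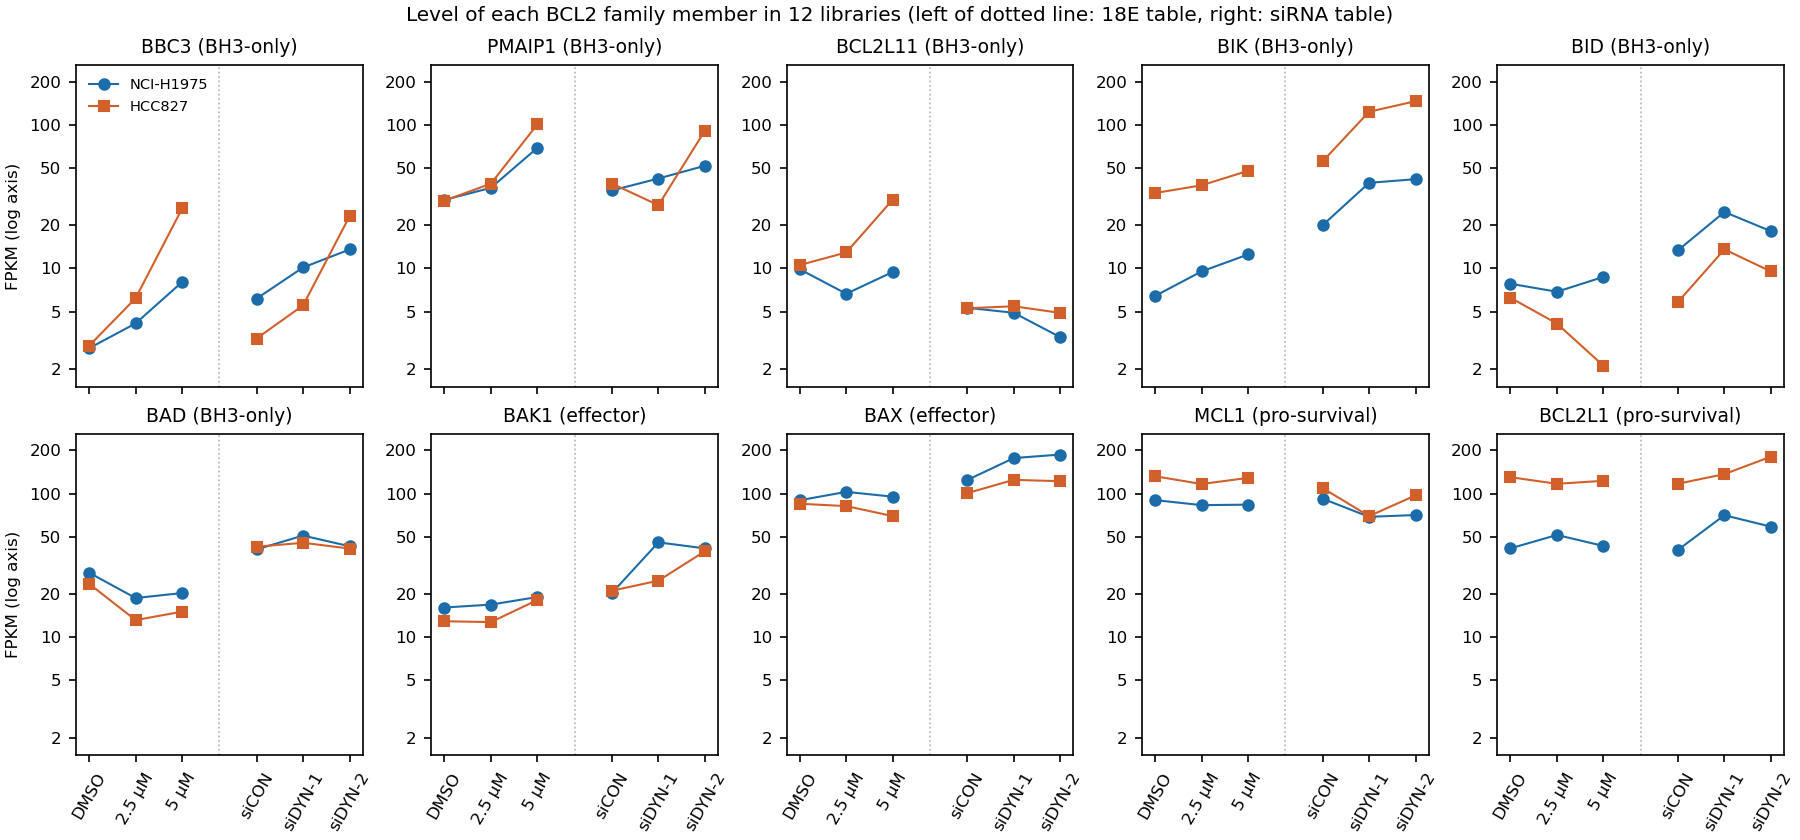
FPKM (log axis) of each of the 10 members in the 12 libraries, with the 18E table left of the dotted line in each panel and the siRNA table right of it; circles are NCI-H1975, squares HCC827, and lines join libraries of 1 line and table. BBC3 and PMAIP1 stand highest at 5 µM 18E and with siDYN-2, and MCL1 and BCL2L1 differ little between the 18E libraries of a line.

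With 18E at 5 µM, the BH3-only genes BBC3, PMAIP1 and BIK were higher than with DMSO in both lines, and BAD was lower in both. The pro-survival members MCL1 and BCL2L1 stayed close to DMSO. Differences are given as log2(FPKM + 1), treated minus control, a scale that understates low genes. None of the 10 members passed an adjusted p of 0.05 in limma at 5 µM; over all 11953 genes tested 1 did (0.00837%). At an unadjusted p under 0.05, 3 members were higher (BBC3, PMAIP1 and BIK), against 10.0% of all genes, and 1 was lower (BAD), against 16.8%. Higher in both lines were 4 of the 10 (BBC3, PMAIP1, BIK and BAK1), against 25.5% of all genes, and lower in both were BAD and MCL1, against 40.8%. A difference of at least 1.5-fold upwards in both lines on this scale was seen for BBC3 and PMAIP1, against 3.08% of all genes. Of the 8 epithelial markers, 5 were lower in both lines (median log2 difference -0.33); their part in the members' values was not tested.

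BBC3 (PUMA), a BH3-only protein that binds all the main pro-survival members, is encoded on the minus strand at chr19:47220822-47232766 (GRCh38, GENCODE 29). It measured 2.78, 4.14 and 8.04 FPKM in NCI-H1975 cells given DMSO, 2.5 µM and 5 µM, while HCC827 gave 2.89, 6.2 and 26.15 FPKM. Both 5 µM libraries lay above all 4 others, a separation whose share among all genes was not counted, and the HCC827 library at 5 µM lay highest. In the fit BBC3 differed by 2.03 ± 0.37 (SE, n = 2 lines) at 5 µM (limma, adjusted p = 0.1) and 0.67 ± 0.37 at 2.5 µM (adjusted p = 0.915).

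PMAIP1 (NOXA), a BH3-only protein that binds chiefly MCL1, is encoded on the plus strand at chr18:59899948-59904306. Its level was 30.0 FPKM in NCI-H1975 under DMSO, going to 36.43 at the lower and 69.21 at the higher dose, with 29.64, 38.95 and 100.99 FPKM for HCC827. Both DMSO libraries were lowest, both 2.5 µM libraries next and both 5 µM libraries highest. How many of all genes share this order was not counted. The fit gave PMAIP1 a log2 difference of 1.46 ± 0.19 at 5 µM (limma, adjusted p = 0.1) and 0.33 ± 0.19 at 2.5 µM (adjusted p = 0.917). By unadjusted p it ranked 32 of 11953 genes at 5 µM.

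BCL2L11 (BIM), a BH3-only protein that can engage pro-survival members and effectors, is encoded on the plus strand at chr2:111119378-111168447. It measured 9.87, 6.66 and 9.45 FPKM in NCI-H1975 cells given DMSO, 2.5 µM and 5 µM, while HCC827 gave 10.56, 12.91 and 30.19 FPKM. Only the HCC827 library at 5 µM stood apart from the other 5. The fitted log2 difference at 5 µM was 0.69 ± 0.35 (limma, adjusted p = 0.259), made of -0.06 in NCI-H1975 and 1.43 in HCC827. It was 0.14 without the HCC827 library at 5 µM and 0.12 without HCC827 with DMSO, against 1.25 without NCI-H1975 with DMSO and 1.24 without NCI-H1975 at 5 µM.

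BIK, a BH3-only protein of the endoplasmic reticulum, is encoded on the plus strand at chr22:43110748-43129712. It was 6.43 FPKM in NCI-H1975 under DMSO, going to 9.53 at the lower and 12.51 at the higher dose, with 33.51, 37.91 and 47.84 FPKM for HCC827. Within each line the 5 µM library was highest, while the lines differed more than the doses. BIK had a fitted log2 difference at 5 µM of 0.68 ± 0.17 (limma, adjusted p = 0.112).

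BID, which death-receptor caspases cleave to its active form, is encoded on the minus strand at chr22:17734138-17774770. It was 7.82, 6.88 and 8.73 FPKM in NCI-H1975 cells given DMSO, 2.5 µM and 5 µM, while HCC827 gave 6.25, 4.13 and 2.1 FPKM. The HCC827 library at 5 µM was lowest, and NCI-H1975 showed no such value. For BID the fit at 5 µM gave -0.54 ± 0.34 (limma, adjusted p = 0.337), and it was 0.06 without that HCC827 library and -1.14 without NCI-H1975 at 5 µM.

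BAD, a BH3-only protein that survival kinases hold inactive by phosphorylation, is encoded on the minus strand at chr11:64269830-64284704. It was 28.13 FPKM in NCI-H1975 under DMSO, going to 18.73 at the lower and 20.3 at the higher dose, with 23.56, 13.15 and 15.06 FPKM for HCC827. Both DMSO libraries lay above all 4 libraries with 18E, and in each line the 2.5 µM library was the lowest. The share of all genes with this separation was not counted. BAD had fitted log2 differences of -0.68 ± 0.16 at 2.5 µM (limma, unadjusted p = 0.006, adjusted p = 0.915) and -0.53 ± 0.16 at 5 µM (adjusted p = 0.128). BAD was the BH3-only gene that was lower in all 4 libraries with 18E.

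The effectors BAK1 and BAX, which form the mitochondrial pore, differed less. BAK1 (minus strand, chr6:33572547-33580293) was 16.09, 16.86 and 19.05 FPKM with DMSO, 2.5 µM and 5 µM for NCI-H1975 and 12.91, 12.74 and 18.16 FPKM for HCC827. The 5 µM library was highest in each line, and the fitted log2 difference was 0.35 ± 0.17 (limma, adjusted p = 0.242). BAX (plus strand, chr19:48954815-48961798) was 89.87, 102.82 and 95.18 FPKM for NCI-H1975 and 84.97, 81.84 and 69.71 FPKM for HCC827. BAX lay above DMSO in both 18E libraries of NCI-H1975 and below it in both of HCC827, and its fitted log2 difference at 5 µM was -0.10 ± 0.16 (adjusted p = 0.698).

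The pro-survival members MCL1 and BCL2L1 showed small differences with 18E. MCL1, which restrains BAK and BIM and is the main partner of NOXA, is encoded on the minus strand at chr1:150574551-150579738. It was 90.09, 83.1 and 83.74 FPKM with DMSO, 2.5 µM and 5 µM for NCI-H1975 and 132.05, 116.63 and 128.68 FPKM for HCC827. Its fitted log2 difference at 5 µM was -0.07 ± 0.14 (limma, adjusted p = 0.758), with a 95% interval of -0.41 to 0.27. BCL2L1, which encodes BCL-XL and by splicing a shorter pro-apoptotic form that a gene-level value does not separate, is on the minus strand at chr20:31664452-31723989. It was 41.55, 51.51 and 43.19 FPKM for NCI-H1975 and 130.1, 117.0 and 122.8 FPKM for HCC827. Its fitted log2 difference at 5 µM was -0.01 ± 0.17 (adjusted p = 0.962), with a 95% interval of -0.43 to 0.41.

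Pro-survival beside pro-apoptotic, the median fitted log2 difference at 5 µM was -0.04 for the 2 pro-survival and 0.51 for the 8 pro-apoptotic members, against -0.09 for all genes tested. The pro-apoptotic median was 0.17 without the HCC827 library at 5 µM and 0.22 without HCC827 with DMSO, and the pro-survival median ran from -0.12 (without NCI-H1975 with DMSO) to 0.03 (without HCC827 with DMSO). For NCI-H1975 at 5 µM, the 8 pro-apoptotic members had a single-library median of 0.19, the 2 pro-survival members -0.02 and all genes -0.07. For HCC827 at 5 µM these values were 0.48, -0.06 and -0.10. The 6 BH3-only genes taken alone gave 0.50 (NCI-H1975) and 0.97 (HCC827), and the 2 effectors 0.16 and 0.09. Summed over genes, BH3-only transcripts amounted in NCI-H1975 to 85.03 FPKM under DMSO and 128.24 FPKM at 5 µM, and in HCC827 to 106.41 and 222.33 FPKM. The pro-survival sum was 131.64 and 126.93 FPKM for NCI-H1975 and 262.15 and 251.48 FPKM for HCC827. The ratio of the BH3-only to the pro-survival sum under DMSO, 2.5 µM and 5 µM was 0.646, 0.612 and 1.01 for NCI-H1975 and 0.406, 0.485 and 0.884 for HCC827. The 5 µM library had the highest ratio in each line, and PMAIP1 was the largest term of the BH3-only sum at that dose.

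**Figure D2:**
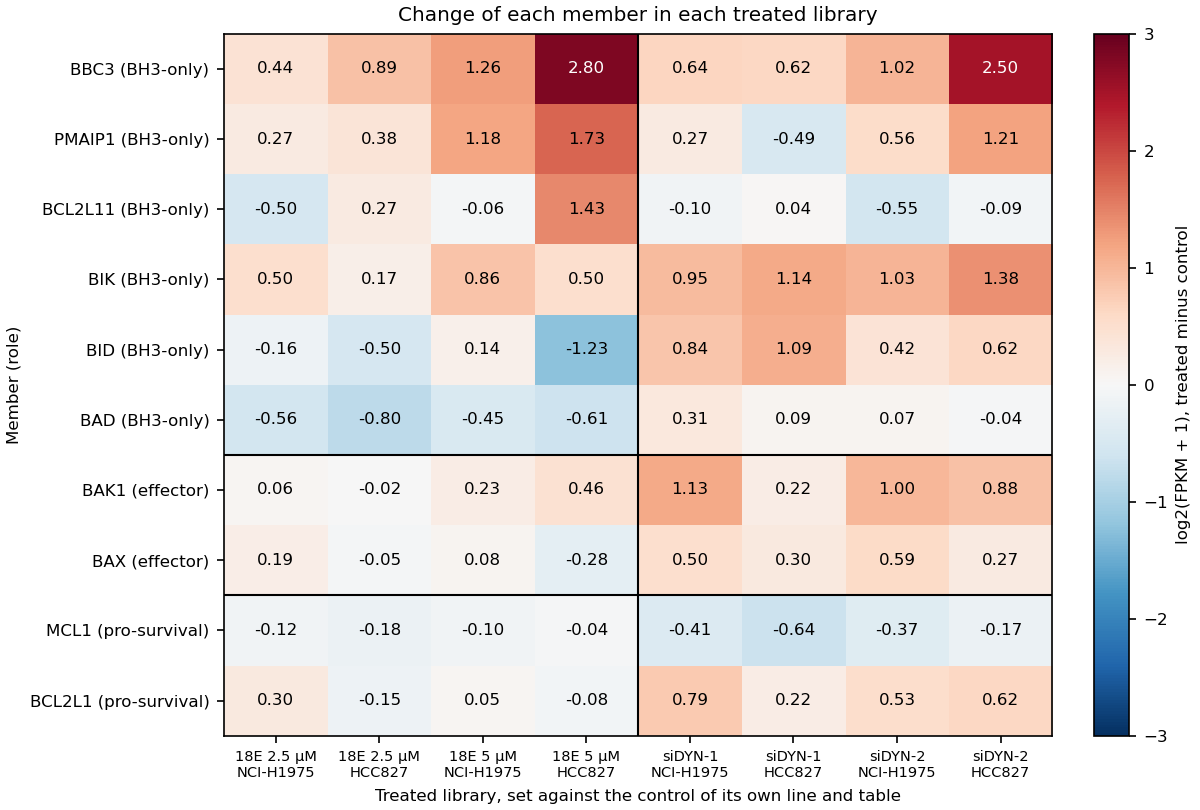
Difference in log2(FPKM + 1) between each treated library and the control of its own line and table, for the 10 members (rows, grouped by role) and the 8 treated libraries (columns); red is higher and blue lower than control. BBC3 and BIK are above control in all 8 libraries and MCL1 is below it in all 8.

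Fewer members differed at 2.5 µM, and both doses share the DMSO libraries, so they are not independent of each other. In limma 0 members and 0 of 11953 genes (0%) passed the adjusted threshold. At an unadjusted p under 0.05, 0 members were higher (3.25% of all genes) and 1 was lower, BAD (2.01%). Higher in both lines were BBC3, PMAIP1 and BIK (32.2% of all genes), and lower in both were BID, BAD and MCL1 (31.6%), counts near the background. The median log2 difference of the pro-apoptotic members was 0.05, and it was -0.01 with FPKM totals set equal.

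In the direct comparison of 5 µM with 2.5 µM, BBC3 was higher by 1.36 ± 0.37 and PMAIP1 by 1.13 ± 0.19 on the log2 scale (limma, adjusted p = 0.411 for each). They were the 2 members higher at an unadjusted p under 0.05 (3.71% of all genes), and 0 were lower (8.05%). No gene passed the adjusted threshold (0%). BCL2L11 differed by 0.81 ± 0.35 and BAD by 0.15 ± 0.16. Without the HCC827 library at 5 µM the difference was 0.70 for BBC3 and 0.26 for BCL2L11, and without NCI-H1975 at 5 µM it was 2.03 and 1.36.

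**Figure D3:**
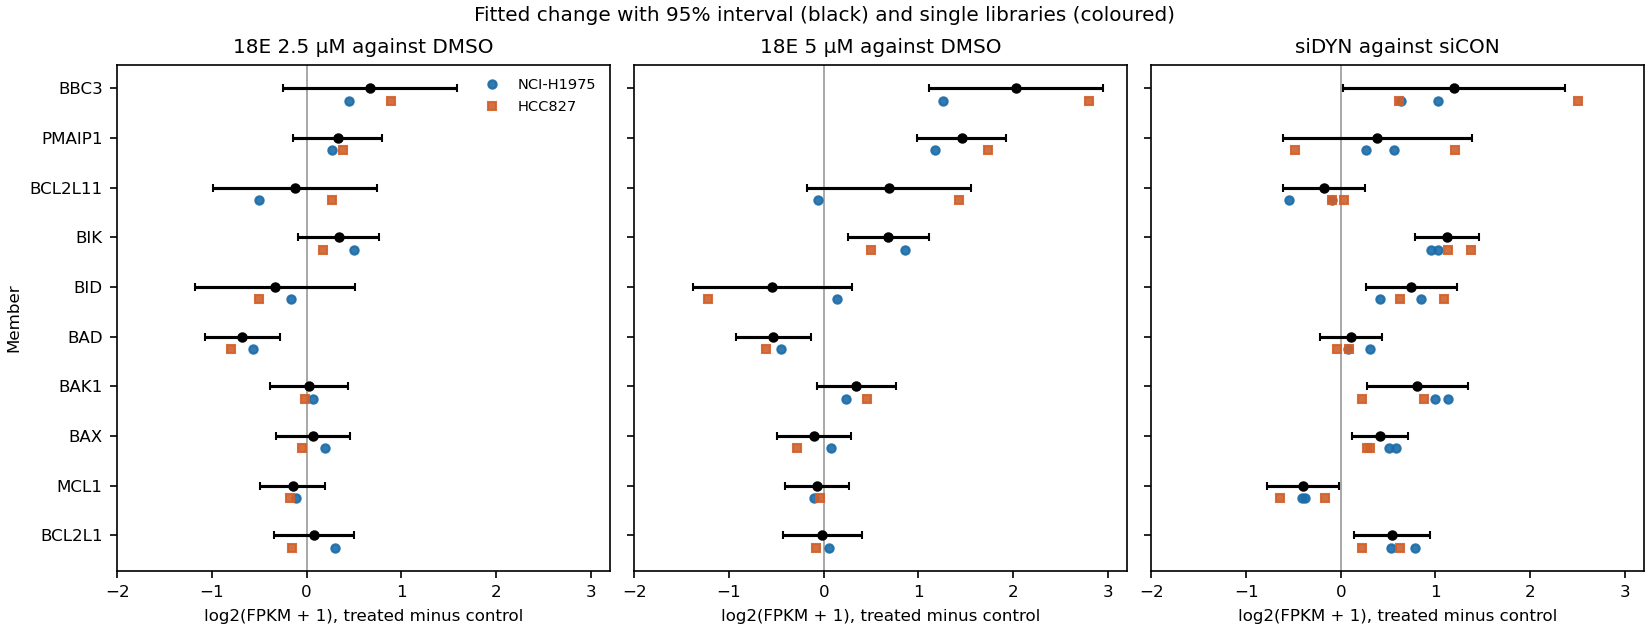
Fitted difference in log2(FPKM + 1) of each member (black points, bars are 95% intervals) for 2.5 µM 18E, 5 µM 18E and both siDYN siRNAs, with single libraries beneath (circles NCI-H1975, squares HCC827). The intervals of BBC3, PMAIP1, BIK and BAD lie off 0 at 5 µM, and those of BBC3, BIK, BID, BAK1, BAX, MCL1 and BCL2L1 with siDYN, before adjustment over all genes.

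With the siDYN siRNAs, 6 members were higher in all 4 treated libraries: BBC3, BIK and BID among the BH3-only genes, both effectors, and the pro-survival gene BCL2L1. MCL1 was lower in all 4. The share of all 11718 genes tested was 24.9% for higher in all 4 and 25.6% for lower in all 4. These 7 members also had an unadjusted p under 0.05 in limma (12.6% of all genes higher, 13.4% lower), and 0 members and 0 genes (0%) passed after adjustment. A difference of at least 1.5-fold upwards in all 4 libraries was seen for BBC3 and BIK (1.32% of all genes). Both siRNAs share the siCON libraries of each line. Of the 8 epithelial markers, 7 were lower in all 4 siDYN libraries (median log2 difference -0.35), and this too was not tested as a part of the members' values.

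BIK had the smallest p of the members with siDYN. It was 19.97, 39.45 and 41.84 FPKM in NCI-H1975 cells given siCON, siDYN-1 and siDYN-2, while HCC827 gave 55.62, 123.35 and 146.13 FPKM. In each line both siDYN libraries lay above siCON, by 1.98-fold to 2.63-fold. The fitted log2 difference was 1.12 ± 0.14 (SE, 2 lines with 2 siRNAs each; limma, unadjusted p = 0.000115, adjusted p = 0.0784), rank 16 of 11718 genes by p.

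BBC3 was 6.16 FPKM in NCI-H1975 under siCON, against 10.16 (siDYN-1) and 13.55 (siDYN-2), with 3.25, 5.53 and 23.11 FPKM for HCC827. All 4 siDYN libraries exceeded the siCON of their line, and HCC827 with siDYN-2 stood apart at 7.11-fold. The fitted log2 difference was 1.20 ± 0.49 (limma, adjusted p = 0.186). PMAIP1 was 34.89, 42.29 and 51.89 FPKM for NCI-H1975 and 38.99, 27.56 and 91.19 FPKM for HCC827. In HCC827 it was thus below siCON with siDYN-1 and above it with siDYN-2, and the fitted log2 difference was 0.39 ± 0.42 (adjusted p = 0.581). Without HCC827 with siDYN-2 the fitted difference was 0.74 for BBC3 and 0.03 for PMAIP1.

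BID was 13.35, 24.72 and 18.16 FPKM in NCI-H1975 cells given siCON, siDYN-1 and siDYN-2, while HCC827 gave 5.83, 13.57 and 9.52 FPKM. In each line siDYN-1 gave the highest level, and the fitted log2 difference was 0.74 ± 0.20 (limma, adjusted p = 0.107). BCL2L11 was 5.32, 4.91 and 3.32 FPKM for NCI-H1975 and 5.28, 5.45 and 4.9 FPKM for HCC827 (-0.17 ± 0.18, adjusted p = 0.565). BAD was 40.85, 51.01 and 42.97 FPKM for NCI-H1975 and 42.66, 45.44 and 41.42 FPKM for HCC827 (0.11 ± 0.14, adjusted p = 0.645). For BCL2L11 and BAD the siDYN libraries lay on both sides of siCON.

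BAK1 was 20.31 FPKM in NCI-H1975 under siCON, against 45.76 (siDYN-1) and 41.51 (siDYN-2), with 21.06, 24.76 and 39.69 FPKM for HCC827. The 4 siDYN libraries lay above both siCON libraries, HCC827 with siDYN-1 by the least (fitted log2 difference 0.81 ± 0.22, limma, adjusted p = 0.108). For this separation, too, the share of all genes was not counted. BAX was 124.32, 176.75 and 187.04 FPKM for NCI-H1975 and 100.76, 124.66 and 121.93 FPKM for HCC827. Each siDYN library exceeded the siCON of its line, and the fitted log2 difference was 0.42 ± 0.13 (adjusted p = 0.118).

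The pro-survival genes differed from siCON in opposite directions, MCL1 downwards and BCL2L1 upwards, without passing the adjusted threshold. MCL1 was 92.21, 68.91 and 70.91 FPKM in NCI-H1975 cells given siCON, siDYN-1 and siDYN-2, while HCC827 gave 109.32, 69.7 and 97.24 FPKM. Each siDYN library lay below the siCON library of its line, by the least in HCC827 with siDYN-2, and the fitted log2 difference was -0.40 ± 0.16 (limma, adjusted p = 0.179). BCL2L1 was 40.52, 70.7 and 58.81 FPKM for NCI-H1975 and 117.12, 136.7 and 180.85 FPKM for HCC827, a fitted log2 difference of 0.54 ± 0.17 (adjusted p = 0.121). The ratio of MCL1 to BCL2L1 FPKM under siCON, siDYN-1 and siDYN-2 was 2.28, 0.975 and 1.21 for NCI-H1975 and 0.933, 0.510 and 0.538 for HCC827. In the 18E table the same ratio was 2.17, 1.61 and 1.94 for NCI-H1975 and 1.02, 0.997 and 1.05 for HCC827. The ratio was thus below control in all 4 siDYN libraries and in both 18E libraries of NCI-H1975, and near its control in HCC827 with 18E.

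The median fitted log2 difference with siDYN was 0.58 for the 8 pro-apoptotic members, against 0.01 for all genes tested. For the 2 pro-survival members it was 0.07, turning to -0.06 with quantile normalization, -0.04 with FPKM totals set equal and -0.02 without HCC827 with siDYN-2. The summed BH3-only level was 120.54 FPKM in NCI-H1975 under siCON, against 172.54 (siDYN-1) and 171.73 (siDYN-2), with 151.63, 220.9 and 316.27 FPKM for HCC827. The effector sum was 144.63, 222.51 and 228.55 FPKM for NCI-H1975 and 121.82, 149.42 and 161.62 FPKM for HCC827. The ratio of the BH3-only to the pro-survival sum was 0.908, 1.24 and 1.32 for NCI-H1975 and 0.670, 1.07 and 1.14 for HCC827, higher than siCON in all 4 siDYN libraries. BIK was the largest BH3-only term in both siDYN libraries of HCC827.

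**Figure D4:**
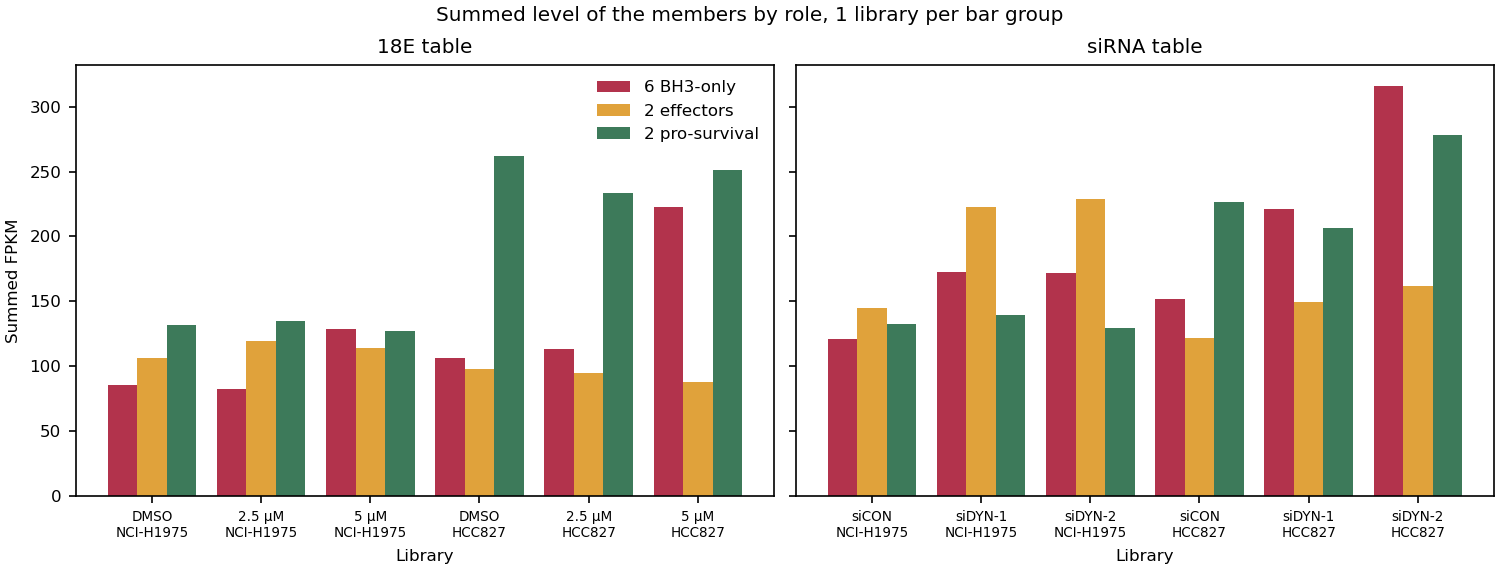
Summed FPKM of the 6 BH3-only members, the 2 effectors and the 2 pro-survival members in each library, for the 18E table (left) and the siRNA table (right), with 1 library per group of bars. The BH3-only sum is highest at 222.33 FPKM for HCC827 in the 18E table and 316.27 FPKM for HCC827 in the siRNA table, at 5 µM and with siDYN-2.

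The siRNAs were compared with each other directly, a comparison chosen after the data were seen. BBC3 was higher with siDYN-2 than with siDYN-1 by 1.13 ± 0.37 (limma, adjusted p = 0.163) and PMAIP1 by 0.99 ± 0.30 (adjusted p = 0.148), whereas BID was lower by 0.45 on the log2 scale (-0.45 ± 0.14, adjusted p = 0.151). These were the members with an unadjusted p under 0.05, 2 higher (13.0% of all genes) and 1 lower (7.90%). Among all genes 71 passed the adjusted threshold (0.606%), and 0 members did. For BBC3 the difference was 0.39 without HCC827 with siDYN-2 and 1.88 without NCI-H1975 with siDYN-2, and for PMAIP1 it was 0.45 without HCC827 with siDYN-1 and 1.53 without NCI-H1975 with siDYN-1. BIK differed by 0.16 ± 0.14 and BAX by 0.02 ± 0.13. DYNC1LI1 was lower with siDYN-2 by a log2 difference of -0.61 ± 0.16 (adjusted p = 0.111), and ATF3, a stress-induced transcription factor, was higher by 1.60 ± 0.22 (adjusted p = 0.0489).

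Differences between the lines in their response were tested as an interaction, with doses or siRNAs standing in for replicates. With 18E, 0 members and 0 genes passed in limma after adjustment (0%), and 0 members had an unadjusted p under 0.05 (1.72% of all genes). With siDYN the same counts were 0, 0 (0%) and 0 (1.52%). The largest fitted differences among members, HCC827 minus NCI-H1975, were 1.13 ± 0.75 for BCL2L11 (95% interval -0.76 to 3.02) and 0.99 ± 1.16 for BBC3 (95% interval -1.94 to 3.93) with 18E. Without the HCC827 library at 5 µM they were 0.55 and 0.04. A difference between the lines within these intervals was not detectable. With 18E, 3 members had the libraries of one line all above and those of the other all below DMSO, against 13.8% of all genes, and with siDYN 0 had this pattern about siCON (6.86%).

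The changes in the siRNA and 18E tables come from separate controls and can be set side by side. BBC3 and BIK were higher than control in all 8 treated libraries, against 7.20% of the 11449 genes tested in both tables, and MCL1 was lower in all 8, against 10.6%. BBC3 reached 9.05-fold of its control in HCC827 at 5 µM and 7.11-fold in HCC827 with siDYN-2, and PMAIP1 reached 3.41-fold and 2.34-fold in the same libraries. BID differed by 1.09 with siDYN-1 and by -1.23 at 5 µM 18E in HCC827. BAD was lower with 18E in all 4 libraries and differed from siCON by -0.04 to 0.31 on the log2 scale in the 4 siDYN libraries.

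Other genes of the pathway were described by lists. Of 13 further BCL2 family genes, 9 passed the filter in each table; BCL2 itself stayed between 0.03 and 0.27 FPKM in all 12 libraries. At 5 µM, 0 of the 9 were higher (10.0% of all genes) and 3 were lower (16.8%) at an unadjusted p under 0.05. The median log2 difference was -0.51 (all genes -0.09). The largest differences were in BMF, a BH3-only gene (-0.77 ± 0.28), BNIP3L, a mitophagy receptor (-0.61 ± 0.16), the pro-survival gene BCL2A1 (-0.60 ± 0.40) and BCL2L15 (-0.56 ± 0.28), the last pair with unadjusted p = 0.182 and 0.0903. The 3 lower genes were BMF, BNIP3L and the pro-survival gene BCL2L2 (-0.51 ± 0.18, limma, unadjusted p = 0.0314). All 3 were lower in both lines, as were 40.8% of all genes. With siDYN 1 was higher (12.6% of all genes) and 2 were lower (13.4%), with a median of 0.10 (all genes 0.01). Those genes were BCL2L13 (0.53 ± 0.15), BNIP3L (-0.85 ± 0.13) and BNIP3, its relative (-0.63 ± 0.18). BCL2A1 differed by 0.50 ± 0.37 (unadjusted p = 0.216), higher in 3 siDYN libraries and lower in 1. In HCC827 BCL2A1 was 29.73 FPKM with DMSO and 9.5 and 10.99 FPKM at 2.5 and 5 µM, while under siCON, siDYN-1 and siDYN-2 it was 69.4, 67.63 and 182.34 FPKM.

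Of 15 transcription factors and cofactors known to act on member genes, 14 passed the filter for 18E and 13 for siDYN. At 5 µM 7 of 14 had an unadjusted p under 0.05 upwards (10.0% of all genes) and 0 downwards (16.8%). The median was 0.52 (all genes -0.09). Largest were ATF3 (4.57 ± 0.56), DDIT3, which encodes CHOP (3.69 ± 0.31), JUN, a subunit of AP-1 (1.69 ± 0.31), and MYC (1.39 ± 0.17). With siDYN 4 of 13 were higher (12.6% of all genes) and 0 lower (13.4%), with a median of 0.41 (all genes 0.01). Among the 4 were DDIT3 (1.84 ± 0.47), CEBPB (1.05 ± 0.16) and TRIB3, a CHOP target (0.77 ± 0.15). ATF3 differed by 1.22 ± 0.57 with siDYN (unadjusted p = 0.0704) and is not among those 4. None passed the adjusted threshold in limma in either comparison. DDIT3 was 18.23, 53.32 and 156.07 FPKM with DMSO, 2.5 µM and 5 µM for NCI-H1975 and 18.7, 92.24 and 402.27 FPKM for HCC827. It was 27.1, 83.43 and 258.67 FPKM with siCON, siDYN-1 and siDYN-2 for NCI-H1975 and 13.71, 29.12 and 41.88 FPKM for HCC827. In HCC827 with siDYN-2 DDIT3 was thus at 305.5% of siCON and BBC3 at 711.1%, while in NCI-H1975 with siDYN-2 they were at 954.5% and 220.0%. At 5 µM 18E, DDIT3 and BBC3 were at 2151.2% and 904.8% of DMSO in HCC827, and at 856.1% and 289.2% in NCI-H1975. A relation between the 2 genes was not tested.

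Of 6 genes that control the turnover of MCL1 protein, 1 was higher (10.0% of all genes) and 3 were lower (16.8%) at 5 µM. These counts are at an unadjusted p under 0.05, and the median was -0.21 (all genes -0.09). The genes were the deubiquitinases USP13 (-0.84 ± 0.27) and USP9X (-0.47 ± 0.17) and the ubiquitin ligases HUWE1 (-0.70 ± 0.16) and MARCHF5 (0.60 ± 0.21). With siDYN 1 was higher (12.6% of all genes) and 2 were lower (13.4%), with a median of -0.25 (all genes 0.01). USP9X was at -0.72 ± 0.16, HUWE1 at -0.60 ± 0.23 and MARCHF5 at 0.37 ± 0.13, while USP13, not counted there, was at -0.31 ± 0.18. None passed the adjusted threshold. USP9X and HUWE1, which act on MCL1 in opposite ways, were both lower in every 5 µM and siDYN library. Of all genes, 40.8% were lower in every 5 µM library and 25.6% in every siDYN library. The share lower in all of these libraries was not counted.

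A list of 15 genes for steps at or after the pore also held CASP8, a death-receptor caspase, which acts before it. Of the 15, 2 were higher (10.0% of all genes) and 3 lower (16.8%) at 5 µM. These counts are at an unadjusted p under 0.05, and the median was -0.09 (all genes -0.09). Among the genes counted were BIRC5, an inhibitor of apoptosis and a mitotic protein (-0.71 ± 0.17), APAF1, the scaffold of the apoptosome (-0.67 ± 0.19), and VDAC2, a channel that binds BAK (0.56 ± 0.17). With siDYN 4 were higher (12.6% of all genes) and 2 lower (13.4%), with a median of 0.21 (all genes 0.01). Among those counted were XIAP, a caspase inhibitor (-0.73 ± 0.14), ENDOG (0.69 ± 0.15) and VDAC1 (-0.62 ± 0.15). None of the 15 passed the adjusted threshold in either comparison.

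Members were also compared by their pattern, with log2(FPKM + 1) centred within line and table over the 12 libraries, points that share controls, lines and tables. Among pairs of members the highest Pearson correlations were 0.94 for BBC3 with PMAIP1 and 0.86 for BAK1 with BCL2L1. The lowest was -0.72 for MCL1 with BAX. These pairs were picked by their values, and the share of all gene pairs with such correlations was not counted. Among 11449 genes, those most like BBC3 were PLK3 (0.99), CDV3 (0.98) and TMBIM1 (0.98), and those most like PMAIP1 were CDV3 (0.98), PI4K2A (0.97) and KIAA0513 (0.96). PLK3, a stress-responsive kinase, differed from control by 1.91 in HCC827 at 5 µM and 1.72 in HCC827 with siDYN-2 on the log2 scale, the libraries in which BBC3 stood highest. Most like BCL2L11 were PELI1 (0.98), DNAJC24 (0.97) and CNNM2 (0.96), and most like MCL1 were PRRC2C (0.97), SLK (0.96) and HIPK1 (0.95). PELI1, a ubiquitin ligase of immune signalling, shared with BCL2L11 a single high library, HCC827 at 5 µM (2.24 above DMSO).

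Limits of the annotation touch some members. In GENCODE 29, exons of BCL2L11, BAD, BAK1 and BCL2L1 overlap genes on the opposite strand (MIR4435-2HG, GPR137, GGNBP1 and ABALON), MCL1 overlaps ADAMTSL4-AS1 on the same strand, and BBC3 overlaps the miRNA genes MIR3190 and MIR3191. Whether reads were counted by strand is not given in the sources used here, so reads of such partners cannot be told apart from those of the members. Another scaling moved the balance of higher and lower genes: of genes with an unadjusted p under 0.05, 37.3% were higher at 5 µM and 48.4% with siDYN, against 22.3% and 28.5% with FPKM totals set equal. In the same way the share was 61.8% at 2.5 µM against 44.1% with equal totals, 31.5% for 5 µM against 2.5 µM with 17.7% (equal totals) and 53.1% (quantile normalization), and 62.3% for siDYN-2 against siDYN-1 with 48.6% (quantile normalization). With 1 library left out, the 18E fits kept 1 residual degree of freedom, and the number of members past the adjusted threshold at 5 µM moved. With siDYN it ran from 0 to 2. The 2 (BIK and BAK1) passed without HCC827 with siDYN-1, as did 128 of all 11718 genes tested.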

How the data were processed

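RNA of 12 libraries was sequenced after Trizol extraction and TruSeq preparation, per the labels' protocols. For the 18E and for the siRNA libraries the authors deposited FPKM, per the file headers, rounded to 2 decimals. Per the submitters' processing notes, which give no roles, Bowtie 0.12.2, GRCh38.p12 and mm8 (a mouse build) were named. How FPKM was computed, from which annotation and with what strand setting is not given in the sources used here. There were 16760 complete genes for 18E and 17442 for the siRNAs. Lines with missing values or spilled text were left out, and 0 columns of per-sample values went unused. FPKM keeps no read totals, so depth is unknown and no counting intervals are given.

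Values were transformed to log2(FPKM + 1). Genes with at least 1 FPKM in 2 or more of 6 libraries were tested with limma 3.58.1 (R 4.3.3; trend in the prior variance, cell line as a term, two-sided, Benjamini-Hochberg adjusted over all genes, threshold 0.05), 11953 for 18E and 11718 for siDYN. The residual degrees of freedom were 2 for 18E and 3 for siDYN, so p-values rest on how far these libraries disagree, which may be technical. Both doses were fitted in 1 model; siDYN pooled both siRNAs. The line difference was an interaction term. The siDYN-2 against siDYN-1 comparison was chosen after seeing the data. The script was tested on simulated data.

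The members and lists were chosen with earlier results of these data known. All 10 members are named; from each list the up to 4 genes with the largest fitted change are named (some are not reported here), and for BBC3, PMAIP1, BCL2L11 and MCL1 the 3 genes with the highest Pearson correlation. BCL2, BCL2L2 and PTPRC were named besides. The levels of DDIT3 and BCL2A1, and the difference of BCL2L2, were chosen after their values were seen. Coordinates are from GENCODE 29 on GRCh38 and promoters from RefSeq on GRCh38.p14. Alternatives changed the pseudocount (0.1), the filter (none), the scaling (quantile, or FPKM totals set equal), the variance trend (none), the line term (none), the treatment grouping (doses together, siRNAs apart) and the libraries (each left out).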

Additional observations from a re-analysis of the deposited data

Results flagged for a closer look

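In 3 members every 18E library of NCI-H1975 lay on the other side of its DMSO control from every 18E library of HCC827, as in 13.8% of all genes tested. BCL2L11 was below DMSO in NCI-H1975 (log2 differences -0.50 and -0.06) and above it in HCC827 (0.27 and 1.43), and the fitted difference of the effect, HCC827 minus NCI-H1975, was 1.13 ± 0.75 (limma, adjusted p = 0.999). BAX was above DMSO in NCI-H1975 (0.08 to 0.19) and below it in HCC827 (-0.28 to -0.05), a difference of -0.30 ± 0.30 (adjusted p = 0.999). BCL2L1 was above DMSO in NCI-H1975 (0.05 to 0.30) and below it in HCC827 (-0.15 to -0.08), a difference of -0.30 ± 0.31 (adjusted p = 0.999). None of these differences passed the test, in which the 2 doses stood in for replicates and shared 1 DMSO library per line.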

How the results depend on the processing

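The number of members past the adjusted threshold stayed at 0 under the alternatives that kept all libraries, except with siDYN-1 alone (1 member, BIK) and siDYN-2 alone (4 members, BBC3, BIK, BID and BAK1), where 82 and 2124 genes passed in place of 0. The number of genes past the threshold at 5 µM, 1 in the fit reported, was 16 with a pseudocount of 0.1 and 0 with no filter, equal totals, no variance trend, no line term or pooled doses. For the line difference with siDYN it was 1 with a pseudocount of 0.1. For siDYN-2 against siDYN-1, 71 in the fit reported, it was 0 with no filter, 0 with no line term, 33 with equal totals and 1 with no variance trend.

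With each library left out in turn, the genes past the threshold ran from 34 to 4520 at 5 µM (members 0 to 7), 0 to 26 at 2.5 µM, 0 to 3478 for 5 µM against 2.5 µM (members 0 to 4), 0 to 128 with siDYN (members 0 to 2) and 1 to 386 for siDYN-2 against siDYN-1 (members 0 to 2). The highs for 18E came without the NCI-H1975 library at 5 µM (4520 and 3478), which leaves 1 residual degree of freedom. BBC3 and PMAIP1 both passed at 5 µM without NCI-H1975 with DMSO, without HCC827 at 2.5 µM and without either 5 µM library, PMAIP1 alone passed without NCI-H1975 at 2.5 µM, and neither passed without HCC827 with DMSO. For siDYN-2 against siDYN-1, leaving out a siDYN library likewise left 1 library in a group. The line difference could not be fitted without a control library.

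Some directions turned, none past the threshold where they did. With pooled doses BCL2L1 was 0.031 (from -0.01 at 5 µM), and BCL2L11 0.28 and BAX -0.015 (from -0.12 and 0.07 at 2.5 µM). With equal totals BAK1 at 2.5 µM was -0.030, BAD with siDYN -0.0058, and the siDYN line differences of PMAIP1 and MCL1 were 0.0001 and 0.046. PMAIP1 with siDYN-1 alone was -0.11, and BAX for siDYN-2 against siDYN-1 was -0.011 with quantile normalization.

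With each library left out, some ranges crossed 0. At 5 µM these were BCL2L1 (-0.16 to 0.13), BAX (-0.25 to 0.052) and BID (-1.14 to 0.058). At 2.5 µM they were BCL2L11 (-0.68 to 0.45), BAX (-0.083 to 0.22), BCL2L1 (-0.12 to 0.27), BAK1 (-0.076 to 0.12) and BID (-0.76 to 0.10). For 5 µM against 2.5 µM they were BCL2L1 (-0.28 to 0.10) and BID (-0.81 to 0.39). For the 18E line difference they were PMAIP1 (-0.34 to 1.01), BAK1 (-0.16 to 0.32) and MCL1 (-0.068 to 0.073), and for that of siDYN PMAIP1 (-0.90 to 0.79), MCL1 (-0.25 to 0.23), BID (-0.0063 to 0.46) and BBC3 (-0.21 to 1.67). For siDYN-2 against siDYN-1 they were BAX (-0.082 to 0.13), BAK1 (-0.17 to 0.69) and BCL2L1 (-0.24 to 0.38). The cause was not tested. The other members kept their direction under every alternative run. Unknown depth and 1 library per line and treatment limit what can be detected.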
